A study of Mus musculus with 18 samples.

Results

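The genes described here are mouse counterparts of human genes that are mutated in inherited motor and sensory neuropathies such as Charcot-Marie-Tooth disease, in spinal muscular atrophy and hereditary spastic paraplegia, and in amyotrophic lateral sclerosis (ALS). They were chosen by name, as gene names equal to a list of 29, and 28 of the 29 were found among the 38924 genes of the deposited tables. The name Igmbp2 matched no gene. It may stand for Ighmbp2, which was not counted as a member and is described last. The libraries come from 18 mice aged 8 weeks on a B6;CASTxB6.129 background and hold mRNA that came down from the spinal cord with haemagglutinin-tagged Rpl22, a protein of the large ribosomal subunit (RiboTag). All 18 mice carried the tag as Rpl+/-, and a Chat-driven Cre recombinase (Chat+/-) switches it on in cholinergic cells, which in the spinal cord include motor neurons but also other cholinergic neurons.

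Cre P278KY mice (n = 3) carried Rpl+/-, Chat+/- and P278KY+/-, a dominant mutation of Gars, the glycyl-tRNA synthetase gene, and Cre WT mice (n = 4) carried Rpl+/-, Chat+/- and P278KY+/+. Mice without Cre (Chat+/+) were P278KY+/- in the NoCre P278KY group (n = 6) and P278KY+/+ in the NoCre WT group (n = 5). The NoCre libraries hold the RNA that sticks to the beads without a Cre-activated tag, so they stand for background from the whole cord. In such bulk libraries, fewer cells of a type and less RNA per cell cannot be told apart. Each library is 1 mouse, and p-values measure the spread between mice.

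Motor neurons have axons far longer than those of most cells, and the genes known for these diseases cluster in a few tasks. Many proteins of the set shape or move membranes along the axon, such as mitochondria, endosomes and the tubular endoplasmic reticulum. Others clear damaged proteins by the proteasome and by autophagy, or bind and process RNA. A smaller number act mainly in the cells that wrap axons with myelin, and motor axons suffer from their loss only indirectly.

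Across the whole data set, the Cre P278KY libraries held between 15461440 and 18944769 counts each and the Cre WT libraries between 14659488 and 24028649. Depth was lower without Cre, with 9876808 to 14450144 counts a library for NoCre P278KY and 8177758 to 11480402 for NoCre WT. Levels below are counts per 1000000 (CPM) after TMM scaling over the 18 libraries, unless TPM is named. Gars averaged 274 ± 23.1 CPM in Cre P278KY and 139 ± 29.3 CPM in Cre WT (SD), so the mutated gene itself was higher (log2 fold change 1.01, adjusted p = 0.0219). Rpl22 averaged 34.7 ± 0.0757 CPM in Cre P278KY and 32.7 ± 9.76 CPM in Cre WT. Chat, the enzyme that makes acetylcholine, lay between 97.8 and 120 CPM for Cre P278KY and between 80.9 and 169 CPM for Cre WT, with at most 3.58 CPM for NoCre P278KY and 12.9 CPM for NoCre WT. All 9 of 9 cholinergic motor neuron markers were higher in Cre libraries in both genotypes, and all 8 of 8 oligodendrocyte markers were lower. Of all genes tested, 28.2% were higher in P278KY and 28.5% in WT, and 31.2% lower in each. The index sequences in the library descriptions occur once among 10 libraries (index set 1) and start again among the other 8 (index set 2). All 3 Cre P278KY libraries belong to index set 1, whereas Cre WT replicates 1 and 2 belong to set 1 and replicates 3 and 4 to set 2. Within Cre WT, Rpl22 had 39 and 43.1 CPM in set 1 and 23.6 and 25.3 CPM in set 2. Gars had 168 and 159 CPM in Cre WT of set 1 and 124 and 105 CPM in set 2. For Chat these values were 148 and 169 CPM in set 1 and 80.9 and 87.6 CPM in set 2. By their transcripts, the Cre WT mice of set 1 were male and those of set 2 female, while Cre P278KY held 1 male and 2 females, so index set and sex cannot be told apart within Cre WT. In NoCre WT replicates 4 and 5, 23% and 33.8% of counts came from protein-coding genes.

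The oligodendrocyte markers differed within the Cre libraries. Their summed level was 703, 793 and 1774 CPM in Cre P278KY, against 748 and 1195 CPM in Cre WT of index set 1 and 3670 and 4101 CPM in Cre WT of index set 2. In NoCre libraries it ran from 9239 to 13180 CPM in P278KY and 8085 to 12855 CPM in WT. All 8 markers were detected in every group. The summed astrocyte level was 173, 236 and 480 CPM in Cre P278KY, against 152 and 258 CPM in Cre WT of set 1 and 931 and 679 CPM in Cre WT of set 2. Schwann cell markers summed to 12.4, 13.2 and 29.2 CPM in Cre P278KY, against 31.8 and 31.9 CPM in Cre WT of set 1 and 93.6 and 148 CPM in set 2. Markers of other spinal neurons summed to 197, 235 and 272 CPM in Cre P278KY, against 103 and 125 CPM in Cre WT of set 1 and 339 and 260 CPM in set 2. The cholinergic markers ran the other way within Cre WT, with 1888, 1836 and 1500 CPM in Cre P278KY, against 2763 and 2401 CPM in Cre WT of set 1 and 1833 and 1619 CPM in set 2. The part of these cells in any result on the disease genes was not tested, and results are therefore given for all 7 Cre libraries and for the 5 Cre libraries of index set 1.

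The members with the smallest p-values in Cre P278KY against Cre WT were Lrsam1, Tardbp and Fig4. Promoter stretches of these 3 genes are shown so that the members with the smallest p-values by genotype can be compared by sequence. They are the 250 bases before the transcription start that RefSeq gives on GRCm38.p6, all on the minus strand, and capitals mark GC boxes (GGGCGG on either strand). Lrsam1 lies at chr2:32925216-32961614, Fig4 at chr10:41188172-41303260 and Tardbp at chr4:148612382-148627019 in GENCODE M21 (GRCm38). The GENCODE models of Fig4 and Tardbp start further upstream, so the last bases of those 2 stretches lie within them.
Lrsam1, chr2:32961642-32961891: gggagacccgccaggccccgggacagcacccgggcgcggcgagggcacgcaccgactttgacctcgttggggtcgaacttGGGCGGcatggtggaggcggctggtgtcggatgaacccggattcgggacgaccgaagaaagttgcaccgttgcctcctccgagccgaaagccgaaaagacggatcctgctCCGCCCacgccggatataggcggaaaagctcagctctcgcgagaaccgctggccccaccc
Fig4, chr10:41303242-41303491: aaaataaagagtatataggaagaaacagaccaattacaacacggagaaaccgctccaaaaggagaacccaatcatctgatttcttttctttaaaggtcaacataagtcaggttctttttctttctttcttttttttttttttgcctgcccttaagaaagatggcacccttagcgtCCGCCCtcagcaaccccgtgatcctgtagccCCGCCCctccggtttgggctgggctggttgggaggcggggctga
Tardbp, chr4:148626997-148627246: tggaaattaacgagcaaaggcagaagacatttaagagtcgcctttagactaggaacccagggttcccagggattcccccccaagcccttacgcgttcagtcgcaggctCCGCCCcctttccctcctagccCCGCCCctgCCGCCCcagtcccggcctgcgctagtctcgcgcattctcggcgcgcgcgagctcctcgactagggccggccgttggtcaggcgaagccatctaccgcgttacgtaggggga
The stretches hold 2 GC boxes in Lrsam1, 2 in Fig4 and 3 in Tardbp. Of 28 members, 21 had a promoter window in the RefSeq table. A member counts once if any of its windows holds a motif, while the shares below are of single windows. The counts and shares are therefore unlike measures. GGGCGG on either strand was found in 16 of these 21, against 32.7% of all 32851 windows of that length. CCAAT on either strand was found in 9 of 21, against 33.8% of windows, and Fig4 alone of the 3 genes shown holds it, with 2 matches. The core of the ATF4 response element, TGATGNAA, was found in 0 of 21 members and in 3.45% of windows. These are matches of letters in 250 bases and name no bound factor.

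When genes are compared per length, the set spans a wide range of levels. Sod1, the copper-zinc superoxide dismutase, stood first with 1274 ± 144 TPM in Cre P278KY and 1696 ± 217 TPM in Cre WT (SD). Its lowest Cre WT library, at 1492 TPM, lay above the highest of Rab7, at 950 TPM. Rab7 followed with 636 ± 190 TPM in Cre P278KY and 662 ± 241 TPM in Cre WT. Hint1 had 647 ± 62.1 TPM in Cre P278KY, against 519 ± 184 TPM in Cre WT, and Pfn1 305 ± 29.4 TPM, against 320 ± 34.1 TPM. Between Rab7 and Optn, places 2 to 18 in Cre WT, every gene's range overlapped that of its neighbour. Optn, at 25.2 ± 5.1 TPM in Cre P278KY and 21.2 ± 3.61 TPM in Cre WT, was clear of Lmna in Cre WT, with 18.5 TPM in its lowest library and 17.7 TPM in the highest of Lmna. Spg11 followed at place 26 with 1.97 ± 0.342 TPM in Cre P278KY and 2.41 ± 1.1 TPM in Cre WT. Sh3tc2 came last but for Trpv4, with 0.123 ± 0.0252 TPM in Cre P278KY, against 0.145 ± 0.169 TPM in Cre WT. Trpv4 had 0.123 ± 0.0681 TPM, against 0.128 ± 0.0499 TPM.

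**Figure D1:**
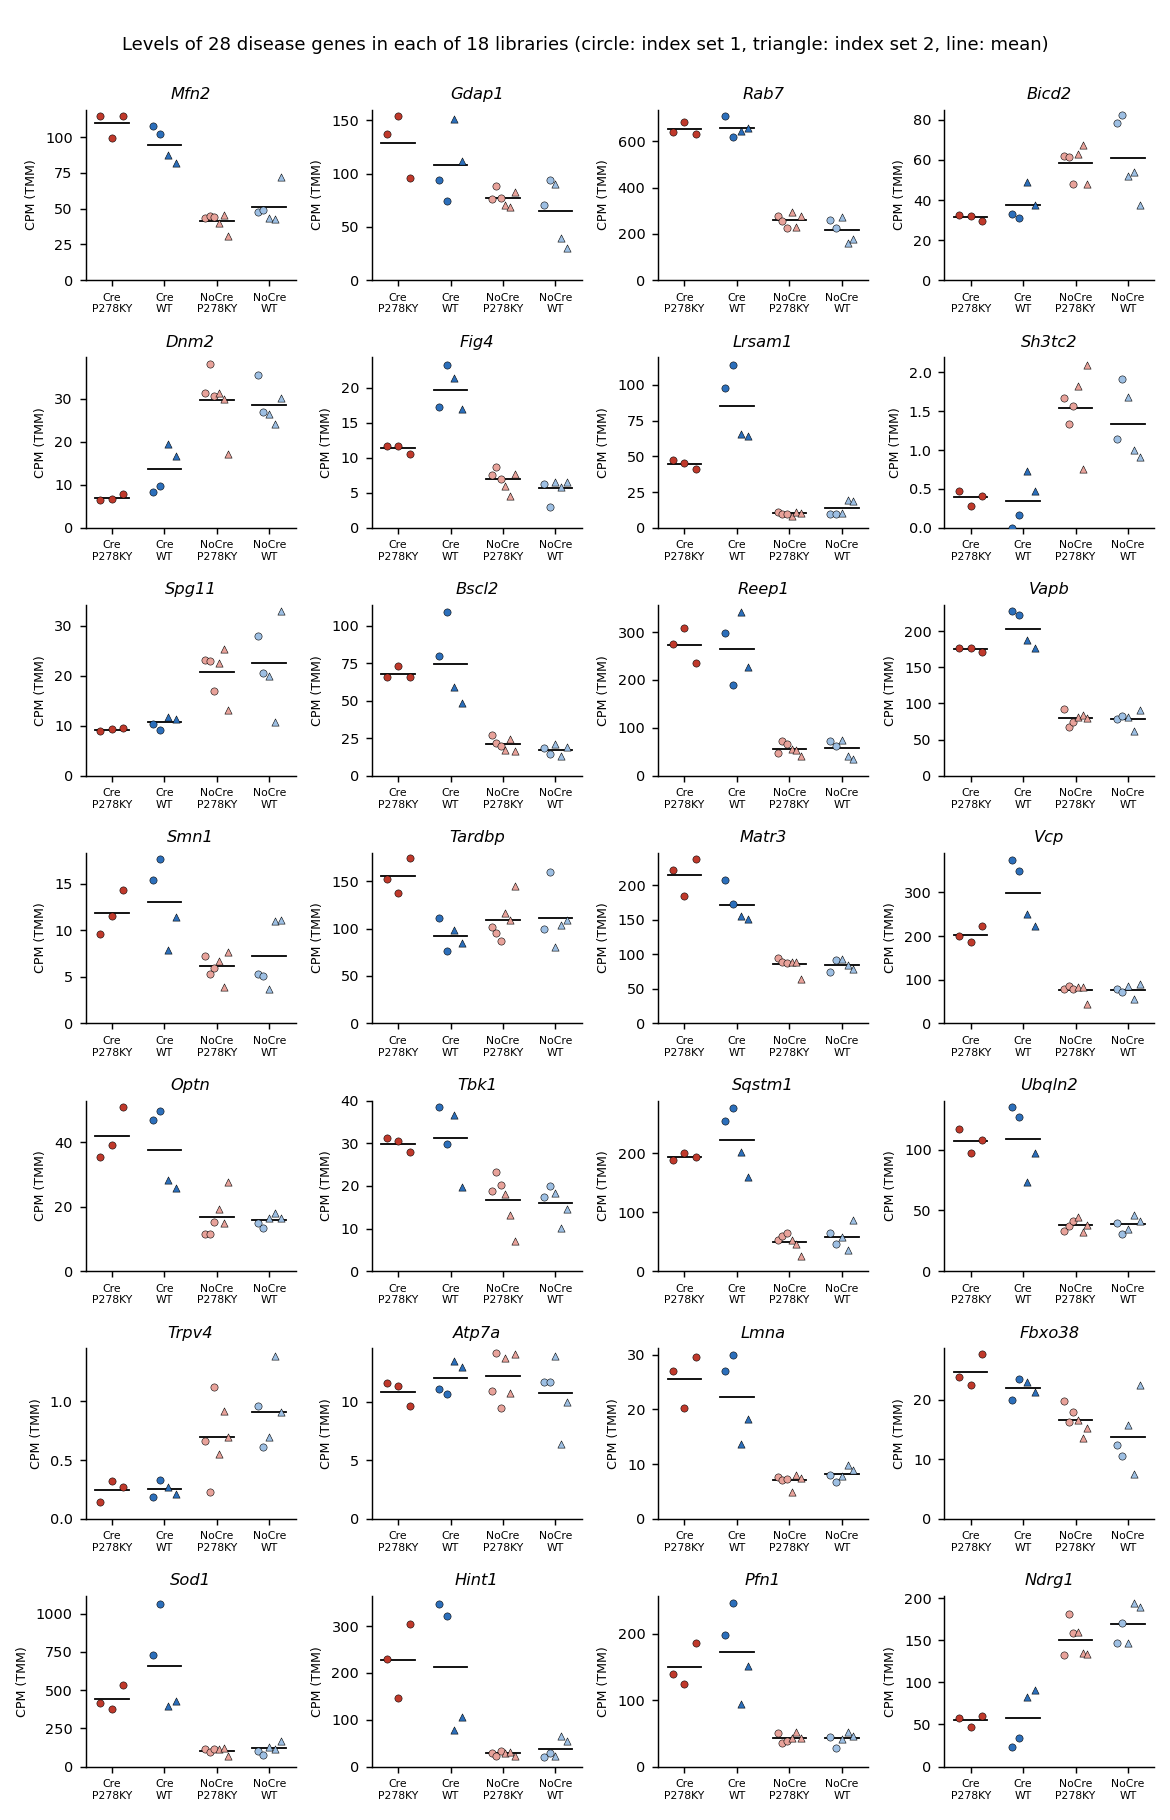
Level of each of the 28 genes (CPM after TMM scaling, linear axis from 0) in each of the 18 libraries, with groups in the order Cre P278KY, Cre WT, NoCre P278KY and NoCre WT; circles are index set 1, triangles index set 2, lines group means. Most genes stand higher in both Cre groups, Bicd2, Dnm2, Sh3tc2, Spg11, Trpv4 and Ndrg1 stand lower there, and the Cre WT libraries split by index set for Sod1, Hint1 and Ndrg1.

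The Cre libraries were first set against the NoCre libraries of the same genotype, which asks how much of each transcript came down with tagged ribosomes rather than with the beads. Most disease genes were enriched, and a minority were depleted. In P278KY mice 21 of 28 genes were higher and 5 lower in Cre, while 28.2% of all genes tested were called higher and 31.2% lower. In WT mice 20 of 28 were higher and 6 lower, beside 28.5% and 31.2% of all genes. The median log2 fold change of the members was 1.23 in P278KY and 1.14 in WT, beside -0.13 and -0.12 over all genes tested. Altogether 20 genes were higher in both genotypes and 5 were lower in both, and Tardbp, Trpv4 and Atp7a made up the other 3. The share of all genes called in both genotypes was not counted. These comparisons share no libraries between genotypes. The lower calls include Sh3tc2 in both genotypes and Trpv4 in WT. Both genes passed the count filter only through the NoCre libraries, where they are higher. Within index set 1 the counts were 20 higher and 5 lower in P278KY, beside 30% and 28.5% of all genes, and 19 higher and 5 lower in WT, beside 29.2% and 28.7%. Within index set 2, which holds no Cre P278KY library, 13 members were higher and 1 lower in WT, beside 14% and 15.6% of all genes. Mfn2, Smn1, Optn, Tbk1, Lmna, Fbxo38, Hint1, Bicd2, Dnm2, Sh3tc2 and Spg11 were not called in WT within set 2.

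The mitochondrial ribosomal RNAs took 2.16% to 4.88% of counts in Cre P278KY and 24.2% to 38.6% in NoCre P278KY, and 1.36% to 3.36% in Cre WT and 31.8% to 53.8% in NoCre WT, and the centre of the comparison moves with the scaling. The median over all genes was -0.62 in P278KY and -0.56 in WT when library sizes left out ribosomal RNA and mitochondrial genes, and 26% and 27.4% of called genes were then higher, against 47.5% and 47.7% with TMM. With RLE size factors the medians were -0.25 and -0.26. With plain library sizes they were -0.12 and 0.20, and the share of higher calls 45.5% and 59.1%. No member called in P278KY or WT reversed its sign under any scaling, and 14 members were still higher in each genotype without ribosomal and mitochondrial RNA, beside 13.1% of all genes in P278KY and 13.8% in WT. Under that scaling Gdap1, Smn1, Tbk1 and Fbxo38 were not called higher in either genotype, nor were Fig4, Vapb and Tardbp in P278KY or Mfn2 and Matr3 in WT. Under all 21 alternatives tried in P278KY and all 23 in WT, 9 genes were past the threshold on the higher side, namely Rab7, Lrsam1, Bscl2, Reep1, Vcp, Sqstm1, Ubqln2, Sod1 and Pfn1. Ndrg1 was past it on the lower side. The share of all genes that stay past it under every alternative was not counted.

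**Figure D2:**
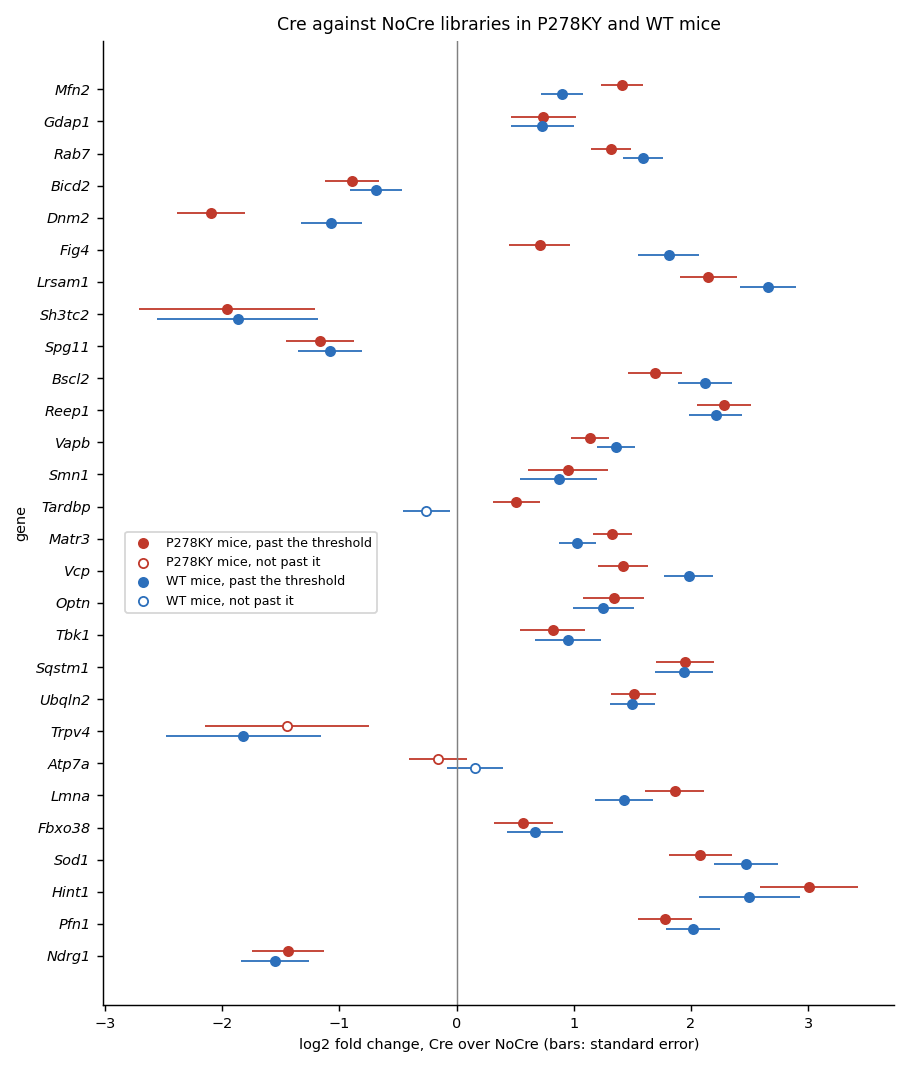
Log2 fold change of Cre over NoCre libraries for each of the 28 genes in P278KY mice (red, upper mark) and WT mice (blue, lower mark), with bars for the standard error and open marks where the adjusted p missed 0.05. Hint1 reaches 3.01 in P278KY and Lrsam1 2.66 in WT, while Dnm2, Sh3tc2, Spg11, Bicd2 and Ndrg1 lie below 0 in both.

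Both genes that shape mitochondria were higher in Cre. Mfn2, an outer-membrane GTPase that fuses mitochondria, averaged 110 ± 8.95 CPM in Cre P278KY and 41.3 ± 5.65 CPM in NoCre P278KY, which is 1.41 ± 0.18 on the log2 scale (SE, adjusted p = 1.81e-06). In WT mice Mfn2 averaged 94.7 ± 12.3 CPM in Cre and 50.9 ± 12 CPM in NoCre (0.90 ± 0.18, adjusted p = 0.000234). Gdap1, an outer-membrane protein involved in fission, rose by 0.74 ± 0.28 in P278KY (adjusted p = 0.0264) and 0.73 ± 0.27 in WT (adjusted p = 0.0239). Its call was lost without Cre P278KY replicate 1 or 2 (adjusted p = 0.0806 and 0.102) and without Cre WT replicate 3 or 4 (0.0515 to 0.109). The Gdap1 value in WT was 0.07 within index set 1 (adjusted p = 0.82) and 1.28 within set 2 (0.0233). Without ribosomal and mitochondrial RNA it was 0.27 in P278KY and 0.25 in WT (adjusted p = 0.617 and 0.636), and RLE factors (0.0539 and 0.0567) and DESeq2 (0.0563 and 0.0561) did not call it either.

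The 7 genes of endosomes, trafficking and membrane remodelling split, with 3 higher and 4 lower in both genotypes. Rab7, the GTPase of late endosomes, averaged 653 ± 28.7 CPM in Cre P278KY and 261 ± 27.6 CPM in NoCre P278KY, and 657 ± 38.1 CPM in Cre WT and 219 ± 48.5 CPM in NoCre WT. Lrsam1, an E3 ubiquitin ligase that acts on endosomal sorting, was enriched by 2.15 ± 0.24 in P278KY and 2.66 ± 0.24 in WT. Fig4, a phosphoinositide phosphatase of endosomes and lysosomes, was enriched by 0.71 ± 0.26 in P278KY (adjusted p = 0.0239) and 1.81 ± 0.26 in WT (adjusted p = 5.22e-06). The P278KY value of Fig4 lost its call without Cre P278KY replicate 1 or 2 (adjusted p = 0.0652 and 0.0583) and within index set 1 (0.0734). In all it was lost in 7 of 21 alternatives.

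Bicd2, an adaptor that links cargo to dynein, had 32.7, 32 and 29.6 CPM in Cre P278KY and a lowest, median and highest of 47.9, 61.9 and 67.5 CPM in NoCre P278KY. It had 33.1, 30.9, 49.2 and 37.7 CPM in Cre WT and 78.7, 82.5, 52, 54 and 37.7 CPM in NoCre WT. The P278KY groups of Bicd2 did not overlap and the WT groups did, with log2 fold changes of -0.89 ± 0.23 (adjusted p = 0.00267) and -0.69 ± 0.22 (adjusted p = 0.00887). Here and below, the share of all genes whose Cre and NoCre groups do not overlap was not counted. Dnm2, the dynamin that cuts vesicles from membranes, had 6.44, 6.69 and 7.75 CPM in Cre P278KY and a lowest, median and highest of 17.1, 31 and 38 CPM in NoCre P278KY. In WT mice Dnm2 had 8.34, 9.81, 19.5 and 16.7 CPM in Cre and 35.5, 26.9, 26.4, 24.1 and 30.1 CPM in NoCre. Neither pair of groups overlapped, and Dnm2 fell by 2.10 in P278KY (adjusted p = 4.38e-06) and by 1.07 in WT (adjusted p = 0.00119) on the log2 scale. Within index set 2 the WT values of Bicd2 and Dnm2 were -0.16 and -0.58, and neither was called (adjusted p = 0.719 and 0.212).

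Spg11, a lysosomal protein of hereditary spastic paraplegia, had 8.95, 9.22 and 9.47 CPM in Cre P278KY and a lowest, median and highest of 13.1, 22.8 and 25.3 CPM in NoCre P278KY. Its WT values were 10.3, 9.15, 11.8 and 11.3 CPM in Cre and 28, 20.5, 20, 10.8 and 32.9 CPM in NoCre. Only the WT groups overlapped, through NoCre WT replicate 4, and Spg11 fell by 1.17 and 1.08 (adjusted p = 0.00165 in P278KY and 0.00154 in WT). Sh3tc2, a protein of recycling endosomes that is known from Schwann cells, was near the limit of detection, with 0.474, 0.286 and 0.412 CPM in Cre P278KY and a lowest, median and highest of 0.754, 1.62 and 2.09 CPM in NoCre P278KY. In WT mice Sh3tc2 had 0, 0.165, 0.731 and 0.473 CPM in Cre and 1.14, 1.92, 1.69, 0.996 and 0.913 CPM in NoCre. The count of 0 in Cre WT replicate 1 allows up to 0.187 CPM (3 counts, counting error only). Its values rest on 23 reads from Cre P278KY libraries and 37 from Cre WT libraries. The calls (adjusted p = 0.0291 in P278KY and 0.0233 in WT) were lost without any of the 3 Cre P278KY libraries (0.064 to 0.112) and without Cre WT replicate 2 or NoCre WT replicate 2 (0.054 to 0.0617).

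The 3 membrane proteins of the endoplasmic reticulum were higher in both genotypes. Reep1, which shapes tubular endoplasmic reticulum, averaged 273 ± 35.9 CPM in Cre P278KY and 56.1 ± 11.4 CPM in NoCre P278KY, 4.86-fold (adjusted p = 7.23e-08), and 264 ± 68 CPM in Cre WT and 56.8 ± 18 CPM in NoCre WT, 4.63-fold (adjusted p = 9.86e-08). Bscl2 (seipin), which works where lipid droplets form, was enriched by 1.69 ± 0.23 in P278KY and 2.12 ± 0.23 in WT. Vapb, which tethers the reticulum to other organelles, was enriched by 1.14 ± 0.16 and 1.36 ± 0.16. No Cre library of these 3 genes overlapped a NoCre library of its genotype. The share of all genes without such overlap was not counted.

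Among the genes of protein quality control, all 5 of 5 were higher in both genotypes. Vcp, the ATPase that extracts ubiquitinated proteins from complexes, rose by 1.42 ± 0.21 in P278KY and 1.98 ± 0.21 in WT. Sqstm1, an autophagy receptor, averaged 193 ± 6.19 CPM in Cre P278KY and 50 ± 13.6 CPM in NoCre P278KY, and 223 ± 53.3 CPM in Cre WT and 58.1 ± 19.2 CPM in NoCre WT. Ubqln2, which shuttles ubiquitinated proteins to the proteasome, rose by 1.51 ± 0.19 and 1.50 ± 0.19. Optn, a second autophagy receptor, and Tbk1, the kinase that acts on such receptors, rose by 1.34 ± 0.26 and 0.82 ± 0.28 in P278KY and by 1.25 ± 0.26 and 0.95 ± 0.28 in WT. Optn and Tbk1 were not called in WT within index set 2 (0.66 and 0.95, adjusted p = 0.153 and 0.109). Without ribosomal and mitochondrial RNA, Tbk1 was at 0.26 in P278KY and 0.42 in WT and was not called (adjusted p = 0.629 and 0.397). Its P278KY call was also lost without Cre P278KY replicate 1 (0.0528), with plain library sizes (0.179) and with index set as a term (0.0601).

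The 3 RNA genes differed in how far they stood out from the cord background. Matr3, a nuclear matrix protein, rose by 1.33 ± 0.17 in P278KY and 1.03 ± 0.16 in WT (adjusted p = 9.52e-07 and 1.67e-05). Smn1, which builds the particles of the splicing machinery, averaged 11.8 ± 2.36 CPM in Cre P278KY and 6.13 ± 1.37 CPM in NoCre P278KY (adjusted p = 0.0196), and 13 ± 4.32 CPM in Cre WT and 7.23 ± 3.53 CPM in NoCre WT (adjusted p = 0.0276). Smn1 lost its call without Cre P278KY replicate 3 (adjusted p = 0.0833) and without Cre WT replicates 1 or 2 or NoCre WT replicates 1, 2 or 3 (0.0677 to 0.101). In all it was lost in 2 of 21 alternatives in P278KY and 10 of 23 in WT. Tardbp, an RNA-binding protein that aggregates in most forms of ALS, rose by 0.51 ± 0.20 in P278KY (adjusted p = 0.0364) and had a log2 fold change of -0.26 ± 0.20 in WT (adjusted p = 0.263). When ribosomal and mitochondrial RNA were left out of the library sizes, Tardbp was at 0.02 in P278KY (adjusted p = 0.952) and was called lower in WT (-0.72, adjusted p = 0.0377). Its WT value was 0.07 with plain library sizes. The P278KY call was lost without Cre P278KY replicate 1 or 3 or NoCre P278KY replicate 1, 2 or 3 (0.061 to 0.132). In all it was lost in 11 of 21 alternatives, among them RLE factors (0.109) and DESeq2 (0.112).

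Of the nuclear genes, Lmna, which encodes the A-type lamins, averaged 25.6 ± 4.78 CPM in Cre P278KY and 7.08 ± 1.11 CPM in NoCre P278KY, and 22.2 ± 7.58 CPM in Cre WT and 8.25 ± 1.18 CPM in NoCre WT. Fbxo38, a ubiquitin ligase subunit, rose by 0.57 ± 0.25 in P278KY (adjusted p = 0.0493) and 0.67 ± 0.24 in WT (adjusted p = 0.0196). The Fbxo38 call was lost when any of 7 libraries was left out in P278KY, namely Cre P278KY replicates 1, 2 and 3 and NoCre P278KY replicates 2, 3, 4 and 5 (adjusted p = 0.0569 to 0.148), and any of 4 in WT, namely Cre WT replicates 3 and 4 and NoCre WT replicates 2 and 4 (0.0506 to 0.0553). In all it was lost in 16 of 21 alternatives in P278KY and 10 of 23 in WT. In P278KY these included RLE factors (0.112), DESeq2 (0.0957) and sex as a term (0.0595).

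Trpv4, a cation channel, and Atp7a, a copper-transporting ATPase, were the transport genes, and neither was higher in Cre. Trpv4 had 0.142, 0.326 and 0.274 CPM in Cre P278KY and a lowest, median and highest of 0.232, 0.682 and 1.12 CPM in NoCre P278KY. In WT mice it had 0.187, 0.33, 0.274 and 0.215 CPM in Cre and 0.961, 0.608, 0.696, 1.39 and 0.913 CPM in NoCre. Its groups overlapped in P278KY (-1.45 ± 0.70, adjusted p = 0.0786) and not in WT, where Trpv4 was lower (-1.82 ± 0.66, adjusted p = 0.0223). The values rest on 15 reads over the Cre P278KY libraries and 21 over the Cre WT libraries. Trpv4 too passed the count filter only through the NoCre libraries, where it is higher, which favoured a lower call. The P278KY value was called without NoCre P278KY replicate 2 (adjusted p = 0.0498), and the WT call was lost without Cre WT replicate 1 (0.0561). Atp7a had 11.6, 11.4 and 9.67 CPM in Cre P278KY and a lowest, median and highest of 9.47, 12.4 and 14.2 CPM in NoCre P278KY. In WT mice Atp7a had 11.1, 10.7, 13.5 and 13 CPM in Cre and 11.7, 11.7, 13.9, 6.38 and 10 CPM in NoCre. Its groups overlapped in both genotypes (adjusted p = 0.582 in P278KY and 0.574 in WT).

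The 4 remaining genes held the largest rise of the set in P278KY. Hint1, a nucleotide hydrolase whose loss causes neuropathy with neuromyotonia, averaged 227 ± 78.8 CPM in Cre P278KY and 28.2 ± 4.39 CPM in NoCre P278KY, 8.04-fold (adjusted p = 1.25e-05), and 213 ± 142 CPM in Cre WT and 38 ± 20.5 CPM in NoCre WT, 5.64-fold (adjusted p = 8.14e-05). The WT value differed between the index sets, at 3.81 within set 1 (adjusted p = 4.69e-08) and 0.95 within set 2 (0.0772). The WT mice of these sets also differ in sex. Sod1 was 4.23-fold higher in P278KY and 5.52-fold higher in WT, and Pfn1, an actin-binding protein, 3.45-fold and 4.06-fold. The WT values of both also differed between the sets, at 3.34 and 1.57 for Sod1 and 2.64 and 1.38 for Pfn1 within sets 1 and 2 (log2), and all 4 were called. Ndrg1, known from Schwann cells and oligodendrocytes, had 58.2, 47.5 and 60.2 CPM in Cre P278KY and a lowest, median and highest of 132, 147 and 181 CPM in NoCre P278KY. In WT mice Ndrg1 had 23.2, 34.2, 82.5 and 91.4 CPM in Cre and 147, 171, 147, 194 and 190 CPM in NoCre. Neither pair overlapped, and Ndrg1 fell by 1.44 in P278KY (adjusted p = 0.000491) and 1.55 in WT (adjusted p = 9.77e-05).

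The second question was which disease genes differ between mutant and wild-type cholinergic neurons in the Cre libraries. With all 7 Cre libraries, 0 of 26 genes tested were called higher and 0 lower at an adjusted p of 0.05 in edgeR, beside 1.22% and 1.11% of all genes. Limma voom called 0 and 0 members and DESeq2 called 1 higher, Tardbp, and 2 lower, Lrsam1 and Fig4. At an unadjusted p under 0.05 there were 5 of 26 members, 1 of them higher, against 16.2% of all genes tested. Log2 fold changes ran from -0.96 for Dnm2 to 0.77 for Tardbp, with a median of -0.07, beside -0.01 over all genes. The groups did not overlap for 6 members, higher for Tardbp and lower for Lrsam1, Fig4, Dnm2, Vcp and Vapb, where 16.6% of all genes had groups without overlap. Of all genes called, 52.3% were higher with TMM, against 62.8% with plain library sizes and 62.7% without ribosomal and mitochondrial RNA. Sh3tc2 and Trpv4 had too few reads in the Cre libraries to be tested.

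Lrsam1 had 47.5, 45.7 and 41.4 CPM in Cre P278KY, against 97.6, 114, 66 and 64.4 CPM in Cre WT. Every P278KY library lay below every WT library, with the 2 WT libraries of index set 1 the highest. On the log2 scale the difference was -0.89 ± 0.22 (SE, adjusted p = 0.074) over all 7 libraries and -1.16 (adjusted p = 0.00401) within index set 1. Over the 19 alternatives it ran from -1.16 to -0.57, and it passed the threshold in 6 of them. One of these left out Cre WT replicate 3 (adjusted p = 0.0441). Among the 19, index set as a term and index set 1 alone are not separate comparisons, as all Cre P278KY libraries belong to set 1.

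Fig4 had 11.7, 11.7 and 10.6 CPM in Cre P278KY, against 17.2, 23.3, 21.4 and 17 CPM in Cre WT. The groups did not overlap, and the 2 highest Cre WT values came from different index sets. Its log2 fold change was -0.77 ± 0.20 (adjusted p = 0.0823), and -0.76 (0.0633) within index set 1.

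Tardbp ran the other way, with 152, 138 and 175 CPM in Cre P278KY, against 111, 76.4, 98 and 84.7 CPM in Cre WT. All 3 P278KY libraries were above all 4 WT libraries, by 0.77 ± 0.19 on the log2 scale (adjusted p = 0.0746), and by 0.79 (0.0511) within index set 1. The NoCre libraries overlapped at 86.4 to 145 CPM in P278KY and 80.6 to 160 CPM in WT. Matr3, also RNA-binding, had 222, 185 and 238 CPM in Cre P278KY, against 208, 172, 156 and 151 CPM in Cre WT. Its groups overlapped (0.35 ± 0.18, adjusted p = 0.381).

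Dnm2 had 6.44, 6.69 and 7.75 CPM in Cre P278KY, against 8.34, 9.81, 19.5 and 16.7 CPM in Cre WT. The groups did not overlap, but both high values were those of index set 2. The log2 fold change was -0.96 ± 0.33 (adjusted p = 0.193) over all 7 libraries and -0.31 (0.532) within set 1. The oligodendrocyte, astrocyte, Schwann cell and other spinal neuron markers were also higher in these 2 libraries than in Cre WT of set 1 and the cholinergic markers lower, as given above, and their part in the difference was not tested.

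Vcp had 199, 187 and 222 CPM in Cre P278KY, against 374, 350, 251 and 223 CPM in Cre WT. The P278KY libraries were below all WT libraries, by a margin of 222 against 223 CPM at the nearest pair. The log2 fold change was -0.53 ± 0.20 (adjusted p = 0.234), and -0.77 (adjusted p = 0.0276) within index set 1. Sod1 had 414, 376 and 535 CPM in Cre P278KY, against 733, 1066, 394 and 432 CPM in Cre WT. The 2 WT libraries of set 1 were above all P278KY libraries, and those of set 2 lay among them. Sod1 had a log2 fold change of -0.53 ± 0.31 (adjusted p = 0.456) over all 7 libraries and -0.95 (adjusted p = 0.0203) within index set 1.

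Mfn2 overlapped between the groups, with 115, 99.4 and 115 CPM in Cre P278KY, against 108, 102, 87.5 and 81.6 CPM in Cre WT (0.24 ± 0.17, adjusted p = 0.523). Vapb had 177, 177 and 172 CPM in Cre P278KY, against 228, 222, 188 and 177 CPM in Cre WT, and the nearest values of the 2 groups differ only past the digits given (-0.19 ± 0.16, adjusted p = 0.633). For the members left, Gdap1, Rab7, Bicd2, Spg11, Bscl2, Reep1, Smn1, Optn, Tbk1, Sqstm1, Ubqln2, Atp7a, Lmna, Fbxo38, Hint1, Pfn1 and Ndrg1, log2 fold changes lay between -0.24 and 0.27 over all 7 libraries. Within index set 1 they ran from -0.49, for Hint1 and Pfn1, to 1.03, for Ndrg1, with Gdap1 at 0.68, Smn1 at -0.41 and Bscl2 at -0.39, and of these 17 only Ndrg1 was called.

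**Figure D3:**
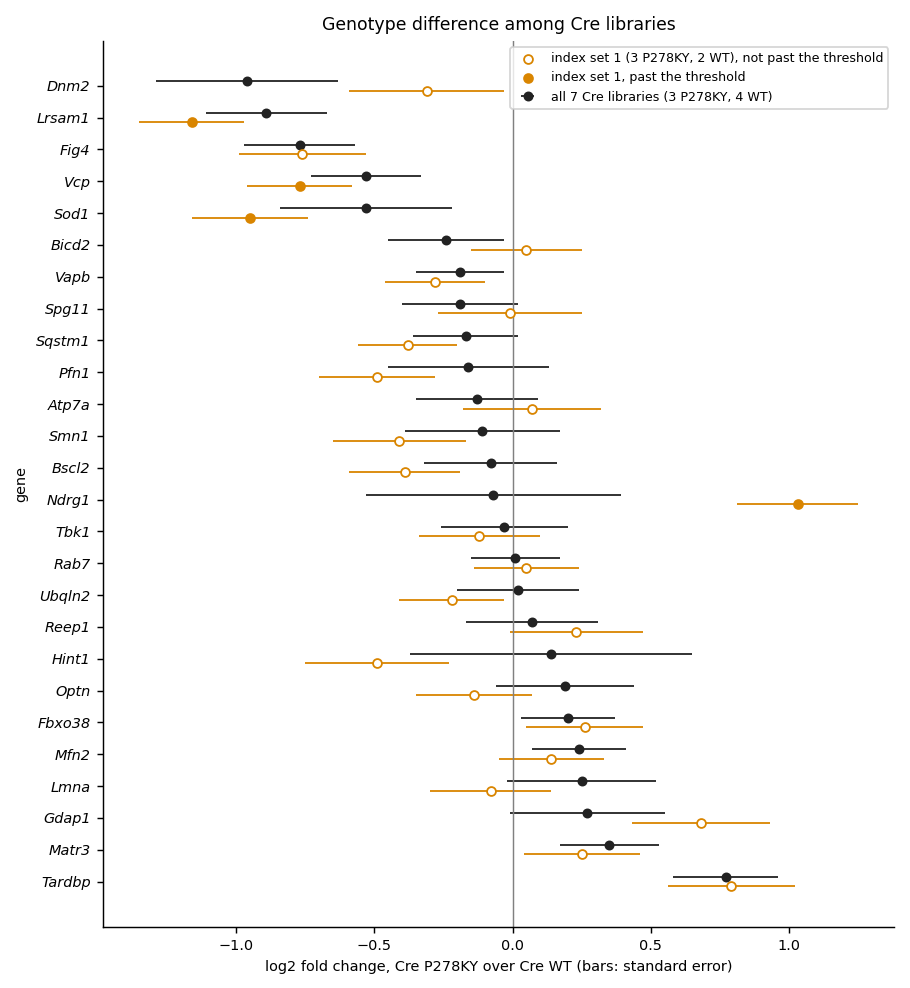
Log2 fold change of Cre P278KY over Cre WT for the 26 genes tested, over all 7 Cre libraries (black) and over the 5 of index set 1 (orange, filled where the adjusted p was under 0.05), with bars for the standard error. No black mark passed the threshold. Lrsam1, Vcp and Sod1 are filled on the low side and Ndrg1 on the high side.

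Index set 1 alone held 3 Cre P278KY and 2 Cre WT libraries, and there 3 members were lower and 1 was higher. These counts stood beside 4.3% of all genes higher and 4.81% lower in that fit. Its 2 Cre WT mice were male, and its Cre P278KY mice were 1 male and 2 females. The groups of that fit therefore also differed in sex, whose part was not tested within set 1. Of the 26 members, 7 had opposite signs over all 7 libraries and within set 1 (Bicd2, Optn, Ubqln2, Atp7a, Lmna, Hint1 and Ndrg1), and Ndrg1 was the only one of them past the threshold in either. Its log2 fold change was -0.07 ± 0.46 over all 7 libraries (adjusted p = 0.964) and 1.03 within set 1 (adjusted p = 0.0171). The 3 Cre P278KY libraries, at 47.5 to 60.2 CPM, lay above the 2 Cre WT libraries of set 1, at 23.2 and 34.2 CPM, and below those of set 2, at 82.5 and 91.4 CPM. Hint1 split in the opposite sense, with 229, 147 and 305 CPM in Cre P278KY, against 348 and 322 CPM in Cre WT of set 1 and 77.3 and 105 CPM in Cre WT of set 2. Index set 2 holds no Cre P278KY library, so it gives no genotype value of its own.

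**Figure D4:**
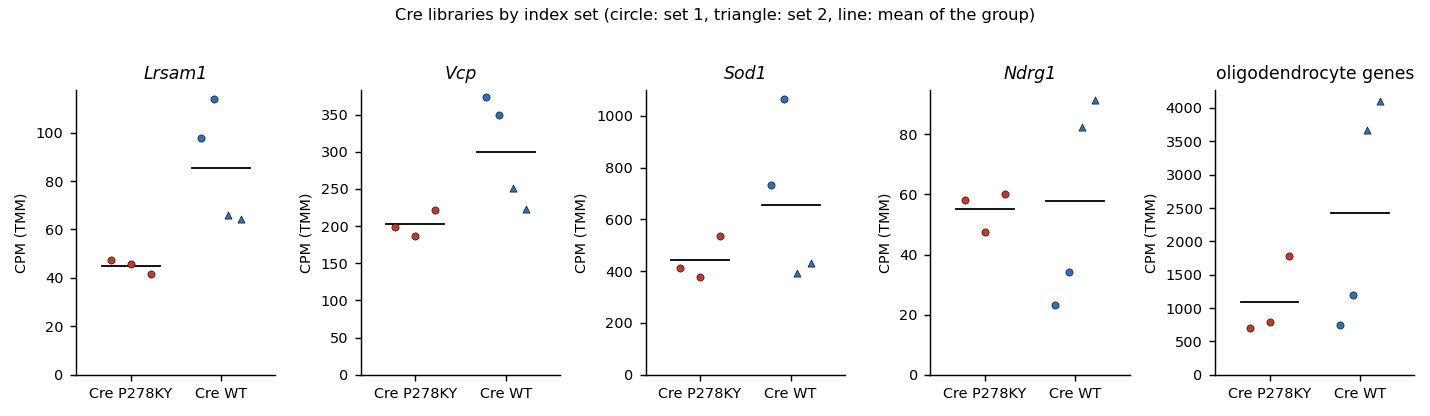
Levels (CPM after TMM scaling, linear axis from 0) of Lrsam1, Vcp, Sod1 and Ndrg1 and the summed level of 8 oligodendrocyte markers in the 3 Cre P278KY and 4 Cre WT libraries; circles are index set 1, triangles index set 2, lines group means. The 2 Cre WT triangles lie at 394 and 432 CPM for Sod1, among the Cre P278KY libraries, and at 3670 and 4101 CPM for the oligodendrocyte markers, above all other Cre libraries.

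In the NoCre libraries, which ask whether the mutation moves the cord background, 0 of 28 genes were higher and 0 lower in edgeR, beside 0% and 0.0233% of all genes. DESeq2 and voom also called 0, and 0 members had an unadjusted p under 0.05. Log2 fold changes ran from -0.42 for Hint1 and Lrsam1 to 0.31 for Bscl2, and the smallest adjusted p was 0.727. The Lrsam1 level was 8.56 to 11.3 CPM in NoCre P278KY and 9.52 to 19.7 CPM in NoCre WT.

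Whether enrichment differed by genotype was tested by the interaction of genotype with Cre, which uses all 18 libraries. It called 0 of 28 members higher and 0 lower in edgeR, beside 0.344% and 0.309% of all genes, and DESeq2 and voom called 0 as well. At an unadjusted p under 0.05 there were 3 of 28 members, 1 of them higher, against 11.1% of all genes. These were Fig4 (-1.10 ± 0.38, adjusted p = 0.224), Dnm2 (-1.03 ± 0.37, adjusted p = 0.248) and Tardbp (0.77 ± 0.29, adjusted p = 0.274). Tardbp, called in P278KY and not in WT, and Trpv4 (0.36 ± 0.94, adjusted p = 0.929), called in WT and not in P278KY, are therefore not shown to differ in enrichment. Within index set 1 the interaction was -1.29 for Lrsam1 (adjusted p = 0.0255) and -1.29 for Sod1 (adjusted p = 0.0356). In that fit 1.17% of all genes were higher and 1.2% lower, and only the Cre P278KY group held females.

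Other genes of neuropathy, spinal muscular atrophy and ALS set the 28 in context. Of 88 such genes, 87 were in the tables. In Cre P278KY against Cre WT, 3 of 82 tested were higher and 5 lower, beside 1.22% and 1.11% of all genes. Those with the smallest adjusted p were Wars, the tryptophanyl-tRNA synthetase (1.49 ± 0.21, adjusted p = 0.00539), Nefl, the light neurofilament (-1.29 ± 0.21, adjusted p = 0.0103), Hnrnpa2b1, an RNA-binding protein (1.10 ± 0.19, adjusted p = 0.018), and Gars. Against NoCre, 38 of 84 were higher and 17 lower in P278KY, beside 28.2% and 31.2% of all genes. In WT 40 were higher and 17 lower, beside 28.5% and 31.2%. In NoCre libraries 0 were higher and 1 lower, Nefl (-0.79 ± 0.14, adjusted p = 0.0468), beside 0% and 0.0233% of all genes. In the interaction 2 were called, both higher, Wars (1.72 ± 0.31, adjusted p = 0.0079) and Hnrnpa2b1 (1.01 ± 0.23, adjusted p = 0.0428). Of all genes, 0.344% were called higher there and 0.309% lower. Ighmbp2, a helicase of spinal muscular atrophy with respiratory distress, averaged 7.45 ± 1.41 CPM in Cre P278KY and 11.6 ± 5.66 CPM in Cre WT (adjusted p = 0.465). The Cre P278KY libraries, all of index set 1, had 6.4, 6.9 and 9.06 CPM. Cre WT had 13.9 and 18.4 CPM in set 1 and 5.76 and 8.35 CPM in set 2. Against NoCre, Ighmbp2 was higher in P278KY (1.25 ± 0.41, adjusted p = 0.0118) and in WT (1.02 ± 0.40, adjusted p = 0.0309).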

How the data were processed

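Ribosome-associated RNA of 18 spinal cords was sequenced, 1 library a mouse, and the genotype labels gave the 4 groups. For each mouse the authors deposited RSEM gene results, which per the file headers give an expected count and a TPM value for every gene. The submitters' processing notes name Bowtie2 2.2.0 and RSEM 1.2.12, and the genome build is not given in the sources used here. Expected counts share out reads that fit several genes, so a gene with near-identical copies is less certain. Deposited TPM served only to order levels between genes.

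Expected counts were rounded and compared by edgeR 4.0.16 (R 4.3.3), with filterByExpr, TMM factors and a robust two-sided quasi-likelihood test, and with Benjamini-Hochberg adjustment over all genes tested and a threshold of 0.05. Cre P278KY against Cre WT used the 7 Cre libraries, and the other comparisons used 4 group means over 18 libraries. Standard errors are the fold change over the square root of F. DESeq2 1.42.0, limma 3.58.1 (voom), other scalings and filters, index set, sex, the mouse number and leaving out each library were alternatives, and the edgeR steps were tested on simulated data. A limit set by a count of 0 covers counting error only. Promoters are from RefSeq (GRCm38.p6) and positions from GENCODE M21.

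The members, lists and tests were chosen with earlier results of these data known. Every library's value is given for members called, or with the 8 smallest p-values, in Cre P278KY against Cre WT, and for those not enriched in Cre in either genotype. Of the other list, up to 4 genes with the smallest adjusted p were eligible. Vapb, Hint1 and Ndrg1 in the Cre genotype difference and Ighmbp2 were chosen after their values were seen.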

Additional observations from a re-analysis of the deposited data

Results flagged for a closer look

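Among 84 sets of 4 to 6 libraries (28 genes in the 3 groups other than Cre P278KY), 5 held a library far from the others by Dixon's test, which chance gives in about 1 in 20. Mfn2 was high in NoCre WT replicate 5, at 71.8 CPM, against 42.6 to 48.7 CPM in the other libraries of the group. Fig4 was low in NoCre WT replicate 2, at 2.94 CPM, against 5.78 to 6.56 CPM. Matr3 and Vcp were both low in NoCre P278KY replicate 6, at 63.6 and 45 CPM, against 86.6 to 94.1 and 78.2 to 86.2 CPM. Lmna was low in NoCre P278KY replicate 4, at 4.89 CPM, against 7.14 to 7.96 CPM.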

How the results depend on the processing

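For Cre P278KY against Cre WT, where 0 members were called higher and 0 lower, 1 higher and 2 lower were called with DESeq2 (2.9% and 3.71% of all genes), 2 higher and 4 lower with index set as a term (5.44% and 5.95%), 1 higher and 3 lower within index set 1 (4.3% and 4.81%), 1 lower with no filter on low counts (0.913%) and 1 lower with sex as a term (2.02%). Leaving out 1 replicate at a time gave 0 higher and 0 to 1 lower, beside 0.366% to 1.08% and 0.255% to 1.18% of all genes. Of these, Ndrg1 turned from -0.07 to 1.03 with index set as a term and to 1.03 within index set 1. The cause was not tested. Index set 2 holds no Cre P278KY library, so with index set as a term the genotype value also comes from set 1 alone. These 2 alternatives therefore agree by design. With the mouse number as a replicate block 3 were higher (Tardbp, Hint1, Lmna) and 1 lower (Dnm2), beside 5.36% and 5.95% of all genes. Only Cre P278KY replicates 1 and 3 and Cre WT replicates 3 and 4 share a number between the Cre genotypes. The genotype values of that fit rest on these libraries, the P278KY ones of index set 1 and the WT ones of set 2. Genotype and index set cannot be told apart there. Deviations of libraries with the same number from different groups correlated at -0.123 to 0.176 (median -0.0105, over 0.1 in 2 of 12 pairs). Pairs within a group were not counted. What mice with the same number share beyond it was not tested. Against NoCre, plain library sizes gave 16 instead of 21 higher and 3 instead of 5 lower in P278KY, beside 20.9% and 25% of all genes. In WT they gave 18 instead of 20 higher and 1 instead of 6 lower, beside 28.2% and 19.5%. Within index set 2, 13 instead of 20 were higher and 1 instead of 6 lower in WT, beside 14% and 15.6% of all genes. With plain library sizes the median of all genes moved to 0.35 in the NoCre comparison, against -0.01, and to -0.32 in the interaction, against -0.02. For the interaction 2 members were lower within index set 1, against 0, beside 1.2% of all genes. In the NoCre comparison 0 members were called under each of 25 alternatives. Leaving out both NoCre WT libraries low in protein-coding reads, an alternative chosen after seeing the data, gave 19 higher and 5 lower in WT. Of all genes, 27.8% were then higher and 30.1% lower. Depth limits Sh3tc2 and Trpv4, with 23 and 15 reads in Cre P278KY.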
